A study of Caenorhabditis elegans with 30 samples.

Results

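HDA-1 is a class I histone deacetylase of *C. elegans*, and the genes described here encode its partner proteins. The 10 genes are listed members of the worm's NuRD, MEC, SIN3 and CoREST complexes. The rule that names them uses no measured value, although the list was drawn up with earlier results of these data known. All 10 were found among the 46934 genes of the count table. All 10 had reads in every one of the 30 libraries and passed the filter on low counts in each comparison. Class I deacetylases remove acetyl groups from histone tails, a change linked to compact, less transcribed chromatin, and they act through multi-subunit complexes that carry them to their targets. In NuRD the deacetylase is joined by a Mi-2 ATPase that moves nucleosomes, by MTA proteins and by an RbAp histone-binding protein. MEC joins the Mi-2 protein LET-418 and HDA-1 with the zinc finger protein MEP-1, SIN3 complexes are built on the scaffold SIN-3, and CoREST proteins link deacetylases to the histone demethylase LSD1 in other animals.

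RNA was measured by QuantSeq, which sequences the 3′ end of transcripts, in adult hermaphrodites of 3 strains that all carry *glp-1(e2141)*, a temperature-sensitive Notch receptor allele that leaves worms raised at the restrictive temperature without a germline. The *glp-1(-);set-26(-)* strain also carries *set-26(tm2467)*, the *glp-1(-);hcf-1(-)* strain carries *hcf-1(pk924)*, and the *glp-1(-)* strain with neither mutation is the control. SET-26 binds the histone mark H3K4me3, and HCF-1 is a conserved chromatin-associated co-regulator. Collections were made at days 1, 3 and 12 of adulthood. At day 1 all worms were on bacteria with an empty vector (EV), and from then on they were kept on *hda-1* RNAi or EV plates. Each of the 15 groups had 2 libraries, and each genotype is 1 strain measured from whole pooled worms. The day 1 worms of a genotype and replicate were divided between the diets, so all libraries of 1 genotype and replicate number were taken to come from 1 population. The labels give the numbers only.

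The libraries held 6045498 to 17748121 reads each (median 8323966). Levels are given as CPM, the usual unit of counts relative to library size, scaled over the 30 libraries by TMM, which sets library size so that most genes do not change. All levels come from whole worms, where fewer cells of a type and less RNA per cell cannot be told apart. Labels were checked against the genes they name. *hcf-1* had 1.07 to 3.35 CPM in the libraries labelled *hcf-1(-)*, below its 4.33 to 21 CPM in all others. *set-26* was no lower in the libraries labelled *set-26(-)*, at 11.9 to 23.4 CPM, than in the controls, at 7.64 to 21.3 CPM. 3′ reads do not check a mutation elsewhere in a gene. *hda-1* reads were higher, not lower, in all 12 libraries labelled *hda-1* RNAi, at 252 to 1920 CPM, than in the 18 EV libraries, at 20.5 to 117 CPM. The RNAi bacteria fed to these worms express double-stranded RNA against *hda-1*, and whether reads came from that RNA was not tested. The *hda-1* reads therefore do not show whether there was a knockdown. Protein was not measured in these libraries, and the RNAi comparisons are given by the libraries' labels. Of 17 germline markers, the summed level was 20.3 to 73.9 CPM, and *glh-2*, *htp-3* and *egg-2* each had 3 or fewer reads in 28 of 30 libraries, while *glh-1*, *puf-5* and *syp-1* had more than 3 reads in all 30.

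The first question is how the partner genes are expressed across the 15 groups. For the 10 genes the highest group mean was 1.45 to 2.18 times the lowest. This ratio was not computed over all genes. *let-418* (chromosome V, 5826833-5832831, plus strand, WBcel235) had 191 to 397 CPM over the 30 libraries, with its lowest group mean, 199 CPM, in day 12 controls on EV and its highest, 363 CPM, in day 3 *hcf-1(-)* worms labelled *hda-1* RNAi. *chd-3* (chromosome X, 12846439-12852601, minus strand), which encodes the other Mi-2 protein, had 51.6 to 130 CPM, with group means of 58.5 CPM in day 3 controls labelled *hda-1* RNAi and 117 CPM in day 1 *hcf-1(-)* worms. The MTA genes varied as little. *lin-40* (chromosome V, 3704988-3712796, plus strand) had 55.5 to 108 CPM, the smallest ratio of highest to lowest group mean of the 10, at 1.45. It overlaps *nrsn-1* on the other strand and an annotated gene on its own strand. *egl-27* (chromosome II, 6835008-6847908, plus strand, 24 annotated transcripts) had 49.3 to 118 CPM and overlaps 1 gene on each strand.

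*lin-53*, on chromosome I, encodes the RbAp46/48-like histone-binding subunit shared by several complexes, and had 5.15 to 13.5 CPM. *mep-1* (chromosome IV, 11524642-11527954, plus strand) had 29.8 to 50 CPM. Both genes had group means that differed by at most 2.15 times. *sin-3*, on chromosome I, had 50.5 to 97.1 CPM, and *athp-1* (chromosome III, 10881766-10893696, plus strand), which encodes a PHD finger protein, had 3.12 to 8.74 CPM. *athp-1* had the fewest reads, 22 to 123 in a library, and the widest spread between replicates, with a pooled coefficient of variation of 25.6% against 9.71% for *sin-3*. The CoREST genes *spr-1* (chromosome V, 8126663-8129352, minus strand) and *rcor-1*, on chromosome I, had 9.38 to 20.3 and 7.65 to 21.2 CPM. *rcor-1* overlaps an annotated gene on its own strand, as *lin-40* and *egl-27* do, so the reads of these genes are uncertain to that extent. Counting was by strand, which separates the genes on opposite strands. When the 15 groups were ordered by mean, the 2 replicates of neighbouring groups overlapped in all 14 steps for *chd-3*, *lin-40*, *lin-53*, *mep-1* and *sin-3*, in 13 of 14 for *let-418*, *egl-27*, *athp-1* and *rcor-1*, and in 11 of 14 for *spr-1*. Such overlaps were not counted over all genes, so they do not show that the partner genes are unusually stable.

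**Figure D1:**
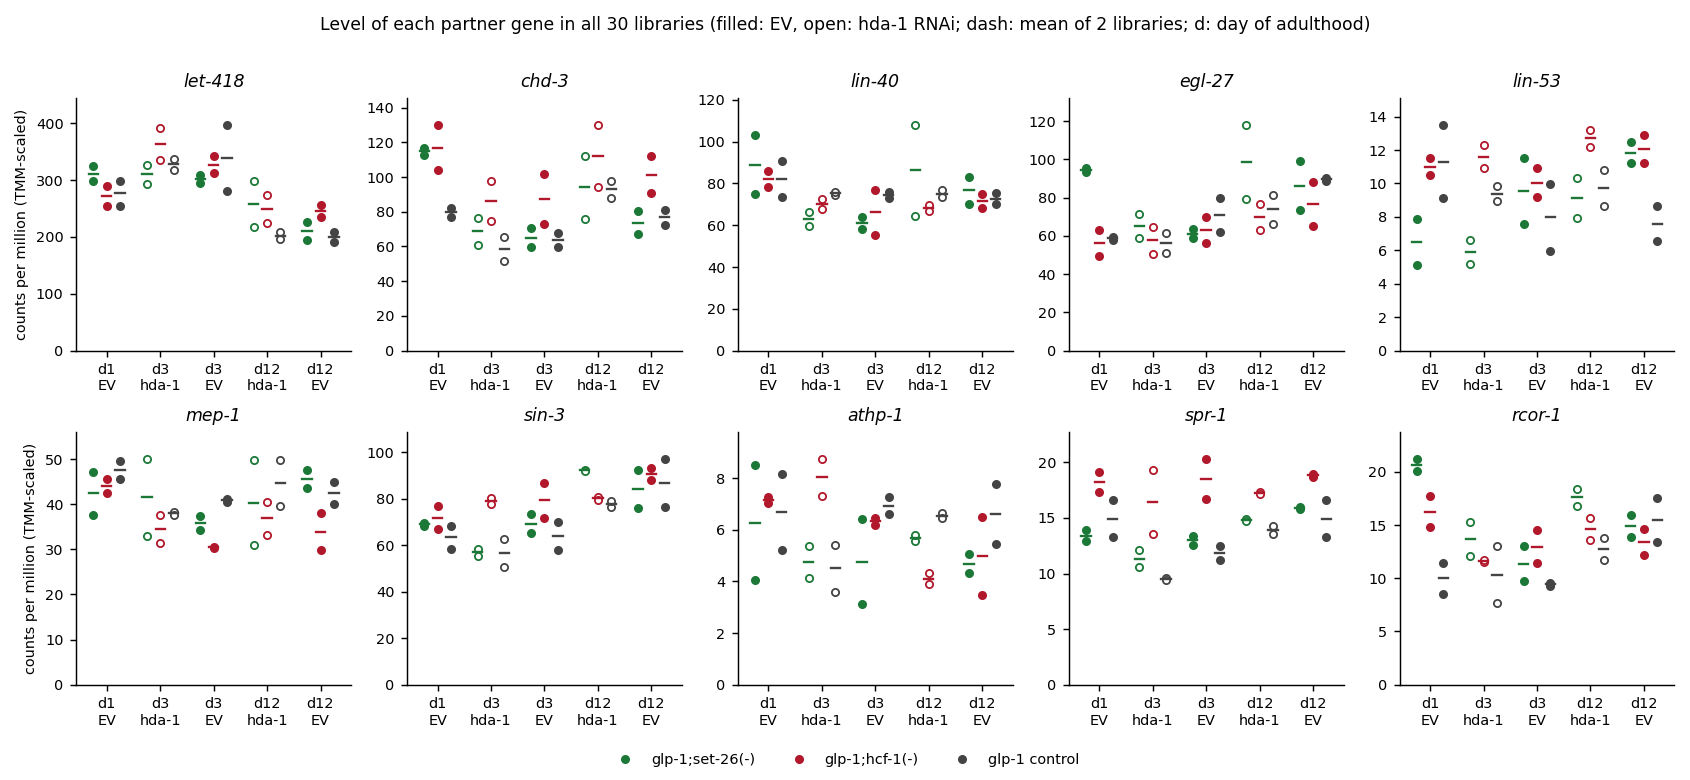
Level of the 10 partner genes in all 30 libraries. The x axis gives day and diet, and the y axis TMM-scaled CPM from 0. Each point is 1 library and each dash the mean of 2, with filled points on EV and open points labelled *hda-1* RNAi. *let-418* lies at 191 to 298 CPM in the 12 day 12 libraries and at 281 to 397 CPM in the 12 day 3 libraries.

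The study asked what changes in long-lived worms that lack SET-26 or HCF-1. At single days and diets the test called none of the 10 partner genes in either mutant. Each comparison of mutant and control used edgeR's quasi-likelihood test in the libraries of 1 day and diet, with Benjamini-Hochberg adjustment over all genes tested, and a gene was called at an adjusted p under 0.05. Of all genes tested on EV, 8.64%, 14.2% and 4.67% were called in *set-26(-)* worms at days 1, 3 and 12. In *hcf-1(-)* worms on EV 13.6%, 14.1% and 5.81% were called. In the libraries labelled *hda-1* RNAi, 9.43% and 3.25% were called in *set-26(-)* worms at days 3 and 12, and 11.3% and 4.31% in *hcf-1(-)* worms. Before adjustment, edgeR gave p under 0.05 in 4 of 30 tests of the partner genes for *set-26(-)* on EV, 6 of 30 for *hcf-1(-)* on EV and 5 of 40 in the *hda-1* RNAi libraries. DESeq2 called 1, 0 and 0 of these tests. Over all genes, edgeR gave p under 0.05 for 20.1% to 26.7% in *set-26(-)* and 22.5% to 30.1% in *hcf-1(-)* worms on EV. In the *hda-1* RNAi libraries the share of all genes was 19.7% to 25.2%. With 2 libraries in a group, standard errors of the log2 fold changes ran from 0.17 to 0.44, so small changes were not detectable. In counts simulated for the *set-26(-)* comparison at day 1, most log2 changes of 1 were missed too, with 12% called. That simulation changed few genes, all among those with higher counts, while 8.64% of genes were called in the real comparison. The 12% therefore need not hold for the partner genes.

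The partner gene nearest to a call was *rcor-1*, a CoREST homolog, in *set-26(-)* worms at day 1. It had 21.2 and 20.1 CPM in *set-26(-)* worms, against 11.4 and 8.56 CPM in controls. The replicates did not overlap, and the log2 fold change was 1.05 ± 0.28 (SE, n = 2 each, edgeR adjusted p = 0.0561). DESeq2 called this difference (adjusted p = 0.0473), as did edgeR without the filter on low counts (adjusted p = 0.0318) and with all 30 libraries in 1 fit (adjusted p = 0.00623). *egl-27*, an MTA-like gene, had 95.7 and 93.2 CPM in *set-26(-)* worms at day 1, against 59.6 and 57.8 CPM in controls. Its groups did not overlap either, and its log2 fold change was 0.69 ± 0.21 (edgeR adjusted p = 0.0842, and 0.043 with all 30 libraries in 1 fit). At day 3 on EV the log2 fold changes were 0.28 ± 0.28 for *rcor-1*, with replicates that did not overlap, and -0.20 ± 0.19 for *egl-27*, with replicates that did. *rcor-1* had 14.8 and 17.7 CPM in *hcf-1(-)* worms at day 1, against the same controls and also without overlap, with a log2 fold change of 0.74 ± 0.28 (edgeR adjusted p = 0.116).

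In *hcf-1(-)* worms *chd-3*, *spr-1* and *sin-3* had higher group means than in controls at each of the 5 day and diet pairs. These pairs come from the same 2 populations of each genotype, so they are not independent repeats. For *chd-3* at day 1, *hcf-1(-)* libraries had 130 and 104 CPM and controls 82.3 and 77 CPM. At day 12 on EV *chd-3* had 112 and 90.7 CPM in *hcf-1(-)* worms, against 72.2 and 81.2 CPM in controls. No *hcf-1(-)* library was below a control library of its own day and diet at day 1, at day 3 with either diet or at day 12 on EV, while at day 12 labelled *hda-1* RNAi, with 130 and 94.4 CPM against 97.5 and 88.2 CPM in controls, the groups overlapped. The summed germline markers at day 1 were 66.7 and 66.8 CPM in *hcf-1(-)* libraries, against 22.4 and 23.6 CPM in controls. At day 12 on EV this sum was lower, at 26.3 and 27.7 CPM against 35.4 and 50.6 CPM, with *syp-1* called up and *glh-1* called down. At day 1, 4 hypodermal markers summed to 5380 and 7350 CPM, against 7870 and 11600 CPM in controls. The markers did not all follow this lower sum. *bli-1* and *rol-6* were called up and none was called down, and the median log2 fold change of the 4 was 1.75. The part of these markers in the mutant differences was not tested. The log2 fold changes of *chd-3* ran from 0.28 to 0.59. At day 3 it was called without *hcf-1(-)* replicate 2, both on EV (0.70, edgeR adjusted p = 0.018) and in the *hda-1* RNAi libraries (0.77, adjusted p = 0.0466).

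*spr-1*, whose human relatives are the RCOR corepressors, was higher in every *hcf-1(-)* library at day 3. It had 20.3 and 16.7 CPM in *hcf-1(-)* worms on EV, against 12.5 and 11.2 CPM in controls. In the day 3 libraries labelled *hda-1* RNAi it had 19.3 and 13.6 CPM in *hcf-1(-)* worms, against 9.61 and 9.38 CPM in controls. All 10 *hcf-1(-)* libraries had more *spr-1* CPM than the controls of their own day and diet, with log2 fold changes of 0.32 to 0.81. The value in the day 3 *hda-1* RNAi libraries, 0.81 ± 0.25 (edgeR adjusted p = 0.0621), was called without the filter on low counts (0.0495), with all 30 libraries in 1 fit (0.0218) and without *hcf-1(-)* replicate 2 (0.0311).

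Averaging the 5 pairs in 1 edgeR fit of all 30 libraries, a contrast added after the data were seen, gave 3 calls in *hcf-1(-)* worms and 1 in *set-26(-)* worms. Of all genes, 33.1% were called for *hcf-1(-)* and 27.8% for *set-26(-)*, so 3 and 1 of 10 are no larger shares than the background. In *hcf-1(-)* worms *chd-3* rose by a log2 fold change of 0.45 ± 0.10 (edgeR adjusted p = 0.00155), *spr-1* by 0.47 ± 0.09 (edgeR adjusted p = 0.000305) and *sin-3* by 0.22 ± 0.08 (edgeR adjusted p = 0.0396). In *set-26(-)* worms *rcor-1* rose by 0.43 ± 0.11 (edgeR adjusted p = 0.00592), while *chd-3* and *spr-1* had 0.15 ± 0.10 and 0.08 ± 0.09.

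The libraries of 1 genotype come from only 2 populations, and this fit treats them as independent. With the correlation within populations estimated by limma, *chd-3* (adjusted p = 0.00478), *spr-1* (0.00236) and *rcor-1* (0.0245) remained called and *sin-3* did not (0.0868). The calls of *chd-3*, *spr-1* and *rcor-1* held in all 30 fits that left out 1 library, and that of *sin-3* was lost in 14 of 30, each without 1 *hcf-1(-)* or control library, with adjusted p up to 0.0949. The members' median was 0.18 for *hcf-1(-)* and 0.08 for *set-26(-)*, against 0.05 and 0.01 over all genes. The TMM factors differed with genotype and age, from 0.6388 in a day 1 control library to 1.336 in a day 12 *hcf-1(-)* library. Scaling by total reads alone moved the median of all genes to 0.35 for *hcf-1(-)* and 0.20 for *set-26(-)*. Relative to that median, *chd-3* and *spr-1* were at 0.41 and 0.43 in *hcf-1(-)* worms and *rcor-1* at 0.42 in *set-26(-)* worms.

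*rcor-1* in *hcf-1(-)* worms had 0.26 ± 0.11 in the average (edgeR adjusted p = 0.0782) and was called only without day 3 control replicate 1 labelled *hda-1* RNAi among the fits that left out 1 library (0.35, adjusted p = 0.0194). The other 6 partner genes gave no call in either average. *lin-53* had 0.33 ± 0.13 in *hcf-1(-)* worms (edgeR adjusted p = 0.0505, and 0.102 in limma with the population correlation). *mep-1* had -0.26 ± 0.10 (edgeR adjusted p = 0.0528, 0.0334 in DESeq2 and 0.108 in limma with the population correlation). *let-418*, the Mi-2 gene that also serves MEC, had 0.14 ± 0.09 in *hcf-1(-)* worms and 0.07 ± 0.09 in *set-26(-)* worms, and *athp-1* had -0.05 ± 0.16 and -0.25 ± 0.17.

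The 2 mutants were also set against each other, and none of the 10 genes was called in any of the 5 pairs. Of all genes, 1.03%, 6.73% and 0.838% were called between *hcf-1(-)* and *set-26(-)* worms on EV at days 1, 3 and 12, and 5.12% and 1.36% in the *hda-1* RNAi libraries at days 3 and 12. edgeR gave p under 0.05 in 5 of 50 tests and DESeq2 called none. The nearest was *lin-53* at day 3 in the *hda-1* RNAi libraries, with 10.9 and 12.3 CPM in *hcf-1(-)* worms and 5.19 and 6.64 CPM in *set-26(-)* worms, a log2 fold change of 0.97 ± 0.27 (edgeR adjusted p = 0.061). Without the filter on low counts it was called (adjusted p = 0.0355). *chd-3* was called at day 3 on EV only without *hcf-1(-)* replicate 2 (0.65, adjusted p = 0.0381). So *chd-3* and *spr-1*, called in the average for one mutant and not the other, are not shown to differ between the mutants. Single pairs with 2 libraries in a group cannot settle whether they do, and the average of *hcf-1(-)* over *set-26(-)* was not fitted.

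**Figure D2:**
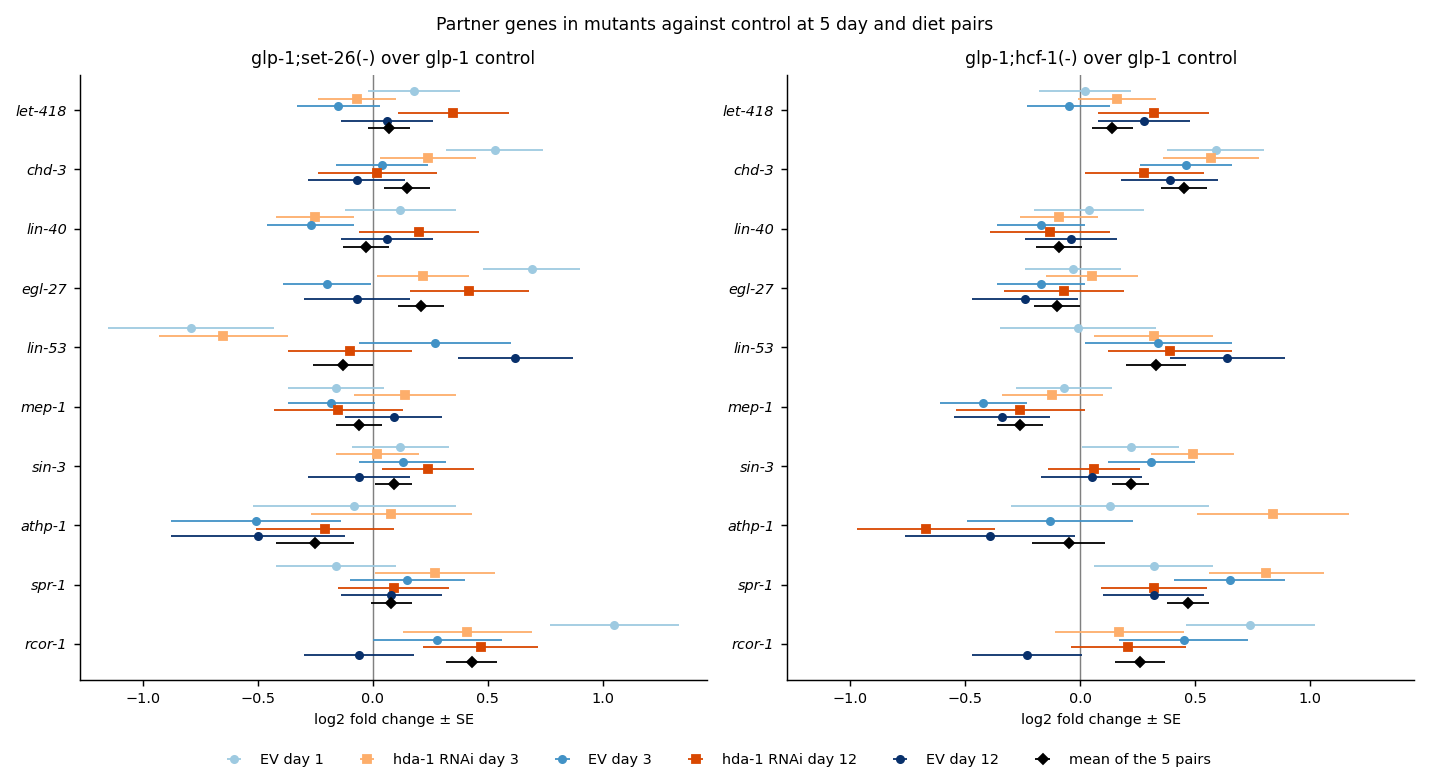
Log2 fold change ± SE of each partner gene in *glp-1(-);set-26(-)* (left) and *glp-1(-);hcf-1(-)* worms (right) over controls, with 2 libraries per group. Circles are EV, squares are libraries labelled *hda-1* RNAi, and diamonds are the average of the 5 pairs. In *hcf-1(-)* worms all 5 points lie above 0 for *chd-3* (0.28 to 0.59) and *spr-1* (0.32 to 0.81).

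The study next asked what *hda-1* RNAi changes. No partner gene was called for *hda-1* RNAi over EV, by the libraries' labels, in any genotype. At day 3 the share of all genes called was 0.099% in *set-26(-)* worms, 0.0159% in *hcf-1(-)* worms, 0.0434% in controls and 0.296% for the average of the genotypes. At day 12 these shares were 1.21%, 5.38%, 0.988% and 16.1%. edgeR gave p under 0.05 in 0 of 30 tests of the partner genes at day 3, 0 of 30 at day 12 and 0 of 20 for the averages, and DESeq2 called none. Over all genes, edgeR gave p under 0.05 for 3.3% to 5.39% at day 3 and 11.9% to 19.1% at day 12. For the averages it was 8.41% at day 3 and 30.1% at day 12. The averaged log2 fold changes ran from -0.22 to 0.10 at day 3 and from -0.09 to 0.28 at day 12, with standard errors of 0.10 to 0.20. The diet averages at day 12 had a member median of 0.03, against 0.00 over all genes.

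*chd-3* had the largest averaged difference at day 12. It had 112 and 76 CPM in *set-26(-)*, 130 and 94.4 CPM in *hcf-1(-)* and 97.5 and 88.2 CPM in control libraries labelled *hda-1* RNAi. The EV libraries of the same populations had 80.3 and 66.9, 112 and 90.7, and 72.2 and 81.2 CPM. In each of the 6 populations *chd-3* was therefore higher in the *hda-1* RNAi library. The averaged log2 fold change was 0.28 ± 0.14 (edgeR adjusted p = 0.204), and with the replicate block, which compares the 2 diets within a population, *chd-3* was called (0.27, adjusted p = 0.0279). No other partner gene was called with the block in this average. The share of all genes called with the block is not given, and without the block 16.1% were called. The summed germline marker level at day 12 was 42 to 73.9 CPM in the *hda-1* RNAi libraries and 26.3 to 50.6 CPM in the EV libraries, and its part in these values was not tested.

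The members of NuRD and MEC other than *chd-3* stayed within 0.13 of 0 in the day 12 average. *let-418* had 0.13 ± 0.12, *lin-40* 0.07 ± 0.13, *egl-27* -0.06 ± 0.14, *lin-53* 0.04 ± 0.14 and *mep-1* 0.02 ± 0.14. For the SIN3 and CoREST genes the same average was -0.05 ± 0.11 for *sin-3*, 0.01 ± 0.19 for *athp-1*, -0.09 ± 0.11 for *spr-1* and 0.05 ± 0.13 for *rcor-1*. These values do not show that the genes were the same on both diets, and only changes well above the standard errors were detectable.

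Whether the response to *hda-1* RNAi differed between mutant and control was tested as an interaction, in which edgeR called 0 of 10 partner genes for either mutant at either day. Of all genes the share called was 0% in each of the 4 tests, with 363 to 839 genes at p under 0.05 before adjustment. DESeq2 called 0 to 22 genes of all tested and none of the 10. *lin-53* had the lowest interaction value of the 10 at both days. Its log2 fold changes for RNAi over EV were -0.67 ± 0.32 and -0.35 ± 0.27 in *set-26(-)* worms at days 3 and 12, against 0.24 ± 0.31 and 0.37 ± 0.29 in controls. The interaction was -0.90 ± 0.43 at day 3 and -0.72 ± 0.35 at day 12 (edgeR adjusted p = 1.0 and 0.887).

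**Figure D3:**
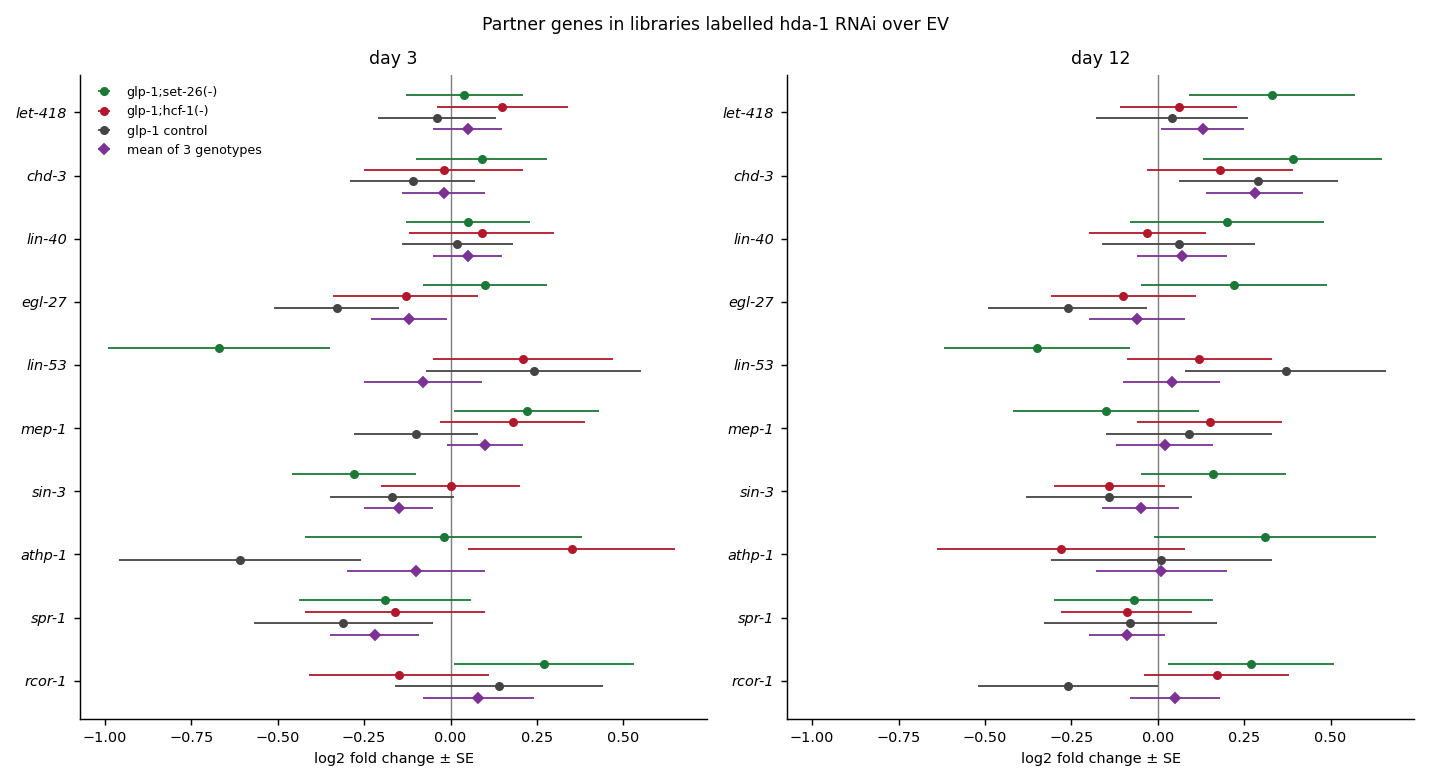
Log2 fold change ± SE of each partner gene in libraries labelled *hda-1* RNAi over EV at day 3 (left) and day 12 (right). Circles are the 3 genotypes with 2 libraries per group, and diamonds are their average, which stays between -0.22 and 0.28.

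Most calls among the partner genes came from comparisons of ages. These were made on EV, averaged over the 3 genotypes in 18 libraries, and the 3 comparisons share libraries. Age moved much of the transcriptome: 40.6% of all genes were called between day 3 and day 1, 41.7% between day 12 and day 3 and 57.6% between day 12 and day 1. Against these shares 4, 3 and 3 of 10 partner genes were called. The members' median log2 fold change was -0.16, 0.19 and -0.12, against -0.01, 0.05 and 0.04 over all genes. The worms' tissue markers moved too. On EV at days 1, 3 and 12 the summed level of 4 hypodermal markers was 5380 to 12200, 246 to 546 and 35.9 to 83.1 CPM. That of 4 muscle markers was 4000 to 5540, 1020 to 1450 and 508 to 885 CPM, and that of 5 intestinal markers 3940 to 5520, 3060 to 4570 and 1100 to 1930 CPM. For 7 neuronal markers it was 702 to 944, 933 to 1140 and 1070 to 1280 CPM. Single markers did not all follow these sums. For day 12 over day 1 on EV, 4 intestinal markers were called down and *elt-2* up. Of the neuronal markers *snb-1*, *rab-3* and *unc-64* were called up and *unc-119* and *ric-4* down. The part of the tissue markers in the age differences was not tested.

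The sign of some age differences depends on the scaling. TMM factors were 0.6388 to 0.9913 at day 1, 0.7667 to 1.045 at day 3 and 1.11 to 1.336 at day 12. Scaling by total reads alone moved the median of all genes to 0.17 for day 3 over day 1, 0.51 for day 12 over day 3 and 0.67 for day 12 over day 1. Age changes are given relative to the bulk of genes, as TMM gives them. Under total reads alone *let-418* and *chd-3* turned from -0.42 and -0.33 to 0.22 and 0.32 for day 12 over day 1, but relative to that scaling's median they were at -0.46 and -0.35.

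*let-418* had the largest averaged difference between days 12 and 3 of the 10 genes. On EV it had 226 and 194 CPM in *set-26(-)*, 256 and 235 CPM in *hcf-1(-)* and 191 and 208 CPM in control worms at day 12. At day 3 it had 295 and 309 CPM in *set-26(-)*, 342 and 312 CPM in *hcf-1(-)* and 281 and 397 CPM in control worms. No day 12 library reached the lowest day 3 library. *let-418* fell by 0.58 on the log2 scale (SE 0.11, edgeR adjusted p = 0.000572) relative to the bulk of genes, and this call held in all 18 fits without 1 library. Under total reads alone it was -0.12 (adjusted p = 0.413), against a median of 0.51. For day 12 over day 1 the log2 fold change was -0.42 ± 0.11 (edgeR adjusted p = 0.00447), also called without each of the 18 libraries.

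In the libraries labelled *hda-1* RNAi, which come from the same populations as the EV libraries, *let-418* had 298 and 218 CPM in *set-26(-)*, 274 and 225 CPM in *hcf-1(-)* and 208 and 197 CPM in control worms at day 12. At day 3 it had 326 and 294, 391 and 335, and 317 and 338 CPM. Only the highest day 12 library reached the lowest of day 3. The log2 fold change was -0.73 ± 0.19 in controls (edgeR adjusted p = 0.0124, lost without either day 3 library, at up to 0.142), -0.49 ± 0.19 in *hcf-1(-)* worms (adjusted p = 0.103, and 0.0262 with the replicate block) and -0.26 ± 0.24 in *set-26(-)* worms (adjusted p = 0.46). On EV *let-418* had -0.53 ± 0.18 in *set-26(-)* (edgeR adjusted p = 0.0365), -0.41 ± 0.19 in *hcf-1(-)* (0.176) and -0.79 ± 0.27 in control worms (0.0549, and 0.0361 with the block). The call in *set-26(-)* worms was lost without either day 3 library or without day 12 replicate 2, at up to 0.178.

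*chd-3*, the other Mi-2 gene, moved at another age. At day 3 on EV it had 70.4 and 59.7 CPM in *set-26(-)*, 102 and 72.9 CPM in *hcf-1(-)* and 59.7 and 67.7 CPM in control worms. At day 1 it had 117 and 113, 130 and 104, and 82.3 and 77 CPM. Within each genotype the day 3 libraries were all below the day 1 libraries. *chd-3* fell by 0.53 on the log2 scale (SE 0.12, edgeR adjusted p = 0.00207) between day 1 and day 3, a call that held in every fit without 1 library and under total reads alone (-0.35, adjusted p = 0.0257). In *set-26(-)* worms alone it fell by 0.82 (SE 0.20, edgeR adjusted p = 0.0105, lost without either day 3 library, at up to 0.224). The change in *hcf-1(-)* worms was -0.43 ± 0.22 (adjusted p = 0.198, and 0.0239 with the replicate block). Between days 3 and 12 *chd-3* had 0.21 ± 0.12 on EV (adjusted p = 0.186), and in control worms labelled *hda-1* RNAi it rose by 0.63 ± 0.21 (edgeR adjusted p = 0.0335, lost without either day 3 library, at up to 0.291).

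For day 12 over day 1 *chd-3* fell by 0.33 (SE 0.12, edgeR adjusted p = 0.0288). That call was lost without any one of 12 of the 18 libraries, with adjusted p up to 0.123. The 12 are all day 1 libraries but *hcf-1(-)* replicate 2, the day 3 control and *set-26(-)* libraries, and at day 12 control replicate 1 and replicate 2 of each mutant. It was also lost without the filter on low counts (0.101) and with all 30 libraries in 1 fit (0.0568). In *set-26(-)* worms alone the change was -0.66 ± 0.22 (edgeR adjusted p = 0.0308), lost without any one of the 4 libraries, at up to 0.373.

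The ratio of the reads of the Mi-2 genes within a library needs no scaling between libraries. *let-418* reads per *chd-3* read were 1.95 to 3.87 in the 6 day 1 libraries (median 2.83), 3.35 to 6.15 in the 12 day 3 libraries (median 4.6) and 2.11 to 2.89 in the 12 day 12 libraries (median 2.57). Days 3 and 12 did not overlap. In *set-26(-)* worms the ratio was 2.56 to 2.88, 4.19 to 5.18 and 2.66 to 2.89 at days 1, 3 and 12, in *hcf-1(-)* worms 1.95 to 2.79, 3.35 to 4.5 and 2.11 to 2.59, and in controls 3.11 to 3.87, 4.7 to 6.15 and 2.13 to 2.65. The diets overlapped, with 4 to 6.15 in libraries labelled *hda-1* RNAi and 3.35 to 5.87 on EV at day 3, and 2.11 to 2.86 and 2.28 to 2.89 at day 12. This ratio was chosen after the levels were seen and is given without a test. The MTA genes had no such gap: *lin-40* reads per *egl-27* read were 0.80 to 1.75 at day 1, 0.91 to 1.46 at day 3 and 0.79 to 1.11 at day 12.

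**Figure D4:**
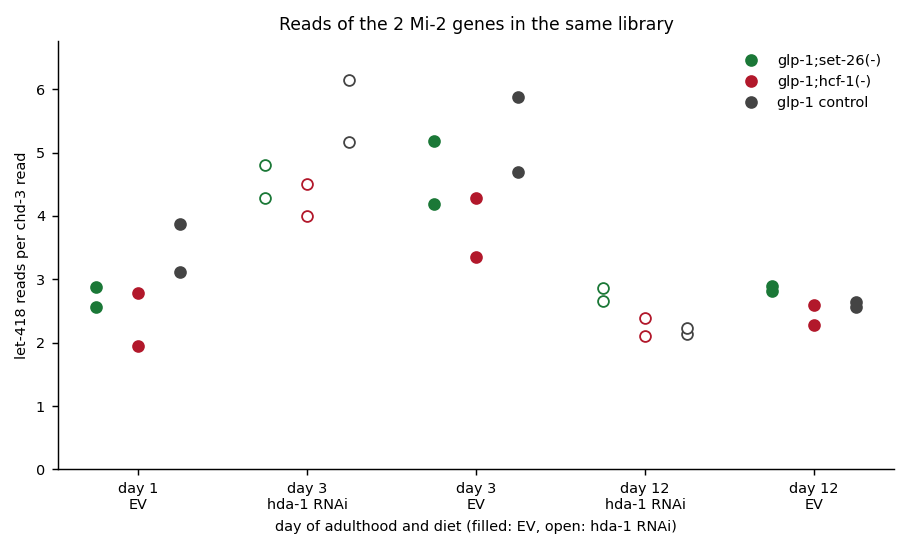
*let-418* reads per *chd-3* read in each of the 30 libraries, by day and diet, from 0. Filled points are EV and open points are labelled *hda-1* RNAi. All 12 day 12 libraries (2.11 to 2.89) lie below all 12 day 3 libraries (3.35 to 6.15).

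**Figure D5:**
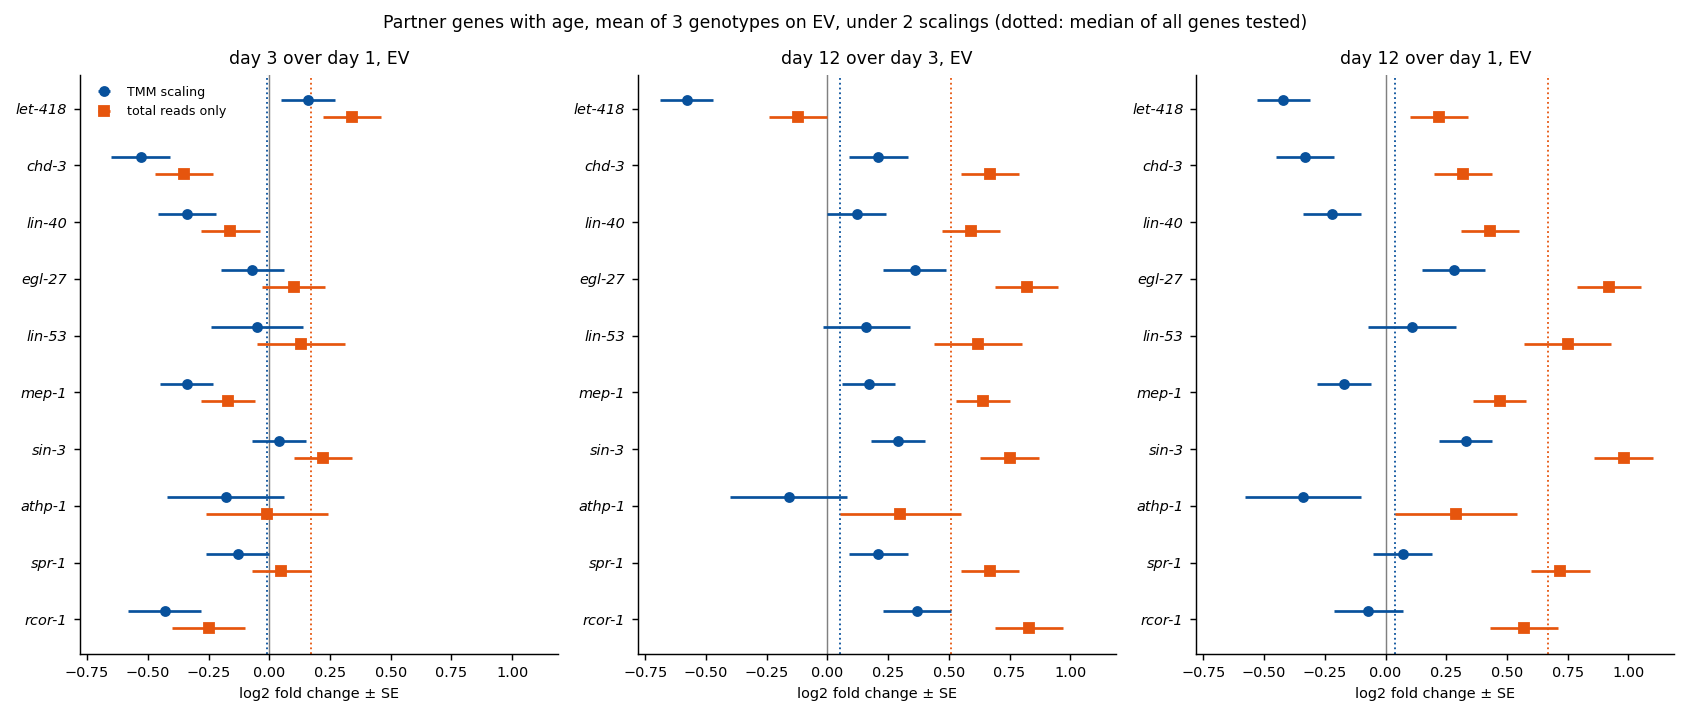
Log2 fold change ± SE of each partner gene with age on EV, averaged over 3 genotypes (18 libraries), with TMM scaling (circles) and scaling by total reads alone (squares). Dotted lines are the medians of all genes tested, which total reads alone place at 0.17, 0.51 and 0.67. *let-418* lies left of the median line of its scaling at day 12 over day 3 and day 12 over day 1 in both.

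Of the MTA genes, *lin-40* fell by 0.34 between day 1 and day 3 (SE 0.12, edgeR adjusted p = 0.0328). It had 63.9 and 58.2 CPM in *set-26(-)*, 76.8 and 55.5 CPM in *hcf-1(-)* and 76.1 and 72.9 CPM in control worms at day 3, against 103 and 75, 86.1 and 78.5, and 90.8 and 73.4 CPM at day 1. The days overlapped only in controls, and the call was lost in 8 of 18 fits without 1 library (day 1 replicate 1 of each genotype, both day 3 control and both day 3 *set-26(-)* libraries, and day 3 *hcf-1(-)* replicate 2), at up to 0.184, without the filter on low counts (adjusted p = 0.11) and under total reads alone (-0.16, adjusted p = 0.295). *egl-27* rose by 0.36 ± 0.13 between day 3 and day 12 (edgeR adjusted p = 0.0297). It had 99 and 73.7 CPM in *set-26(-)*, 88.3 and 65.1 CPM in *hcf-1(-)* and 88.7 and 90.3 CPM in control worms at day 12, against 58.7 and 63.5, 70 and 56.1, and 62.1 and 79.8 CPM at day 3. The days overlapped only in *hcf-1(-)* worms, and the call was lost in 7 of 18 fits without 1 library, at up to 0.104 (day 3 control replicate 1, both day 3 *set-26(-)* libraries and *hcf-1(-)* replicate 2, and at day 12 control replicate 2 and replicate 1 of each mutant), and without the filter on low counts (0.064). In *set-26(-)* worms *egl-27* fell by 0.62 between day 1 and day 3 (SE 0.20, edgeR adjusted p = 0.034, lost without either day 3 library, at up to 0.349), while it had 0.16 ± 0.21 in *hcf-1(-)* and 0.28 ± 0.21 in control worms.

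*mep-1*, the zinc finger gene of MEC, fell by 0.34 between day 1 and day 3 (SE 0.11, edgeR adjusted p = 0.0168). It had 37.3 and 34.3 CPM in *set-26(-)*, 30.6 and 30.3 CPM in *hcf-1(-)* and 41.2 and 40.6 CPM in control worms at day 3, against 37.7 and 47.1, 45.6 and 42.5, and 45.5 and 49.6 CPM at day 1. Every day 3 library was below the day 1 libraries of its genotype. In *hcf-1(-)* worms alone *mep-1* had -0.54 ± 0.18 (adjusted p = 0.0588, and 0.0211 with the replicate block). The averaged call was lost in 6 of 18 fits without 1 library, at up to 0.0794 (replicate 2 of the day 1 control and *set-26(-)* libraries, day 1 *hcf-1(-)* replicate 1, both day 3 controls and day 3 *set-26(-)* replicate 2), without the filter on low counts (0.125) and under total reads alone (-0.17, adjusted p = 0.242).

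*sin-3* was the only SIN3 gene called. It rose by 0.33 ± 0.11 between day 1 and day 12 on EV (edgeR adjusted p = 0.0205). It had 92.5 and 76.1 CPM in *set-26(-)*, 88.3 and 93.2 CPM in *hcf-1(-)* and 76.3 and 97.1 CPM in control worms at day 12, against 69.7 and 68.5, 76.7 and 67, and 68.5 and 58.6 CPM at day 1. Only the 2 lowest day 12 libraries failed to clear every day 1 library. The call was lost without day 1 *hcf-1(-)* replicate 2, day 12 control replicate 2 or day 12 *set-26(-)* replicate 1, at up to 0.0664, and without the filter on low counts (0.0561). Between day 3 and day 12 *sin-3* had 0.29 ± 0.11 on EV (adjusted p = 0.0511). In *set-26(-)* worms labelled *hda-1* RNAi it had 92.4 and 92 CPM at day 12 and 58.6 and 55.2 CPM at day 3, a rise of 0.70 ± 0.22 (edgeR adjusted p = 0.036, lost without either day 3 library, at up to 0.302). *athp-1* was called in no age comparison, with -0.93 ± 0.30 in *hcf-1(-)* worms labelled *hda-1* RNAi between days 3 and 12 as its nearest (adjusted p = 0.0525, and 0.0283 with the replicate block).

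Of the CoREST genes, *spr-1* was called in no age comparison. *rcor-1* was called for both a fall and a later rise only in the average over genotypes. Its group means on EV at days 1, 3 and 12 were 20.6, 11.4 and 14.9 CPM in *set-26(-)* worms. They were 16.2, 12.9 and 13.4 CPM in *hcf-1(-)* and 9.99, 9.46 and 15.4 CPM in control worms. In the average *rcor-1* fell by 0.43 between day 1 and day 3 (SE 0.15, edgeR adjusted p = 0.0255) and rose by 0.37 ± 0.14 between day 3 and day 12 (edgeR adjusted p = 0.048, and 0.062 with the replicate block). The fall was led by *set-26(-)* worms, which had 9.76 and 13 CPM at day 3, against 21.2 and 20.1 CPM at day 1, a change of -0.85 ± 0.26 (edgeR adjusted p = 0.0298, lost without either day 3 library, at up to 0.309). Controls had 9.32 and 9.6 CPM at day 3, against 11.4 and 8.56 CPM at day 1. The averaged fall was lost in 7 of 18 fits without 1 library, at up to 0.12 (day 1 replicate 1 of control and *set-26(-)*, day 1 *hcf-1(-)* replicate 2, both day 3 controls, day 3 *set-26(-)* replicate 1 and *hcf-1(-)* replicate 2), without the filter on low counts (0.0989) and under total reads alone (-0.25, adjusted p = 0.182). The averaged rise was lost without that filter (0.147) and in 12 of 18 fits without 1 library, at up to 0.142, and kept only without either day 1 control, day 3 *set-26(-)* replicate 2, day 3 *hcf-1(-)* replicate 1, day 12 control replicate 2 or day 12 *hcf-1(-)* replicate 1.

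Each genotype taken alone gave fewer calls. For day 3 over day 1 the shares of all genes called were 29.7% in *set-26(-)*, 27.2% in *hcf-1(-)* and 9.99% in control worms, with 3, 0 and 0 partner genes called. For day 12 over day 3 on EV they were 34.4%, 17.4% and 28.6%, with 1, 0 and 0, and in the *hda-1* RNAi libraries 30.1%, 19.8% and 39.6%, with 1, 0 and 2. For day 12 over day 1 they were 42.0%, 39.7% and 26.8%, with 1, 0 and 0.

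Whether the age differences differed between mutant and control was tested as interactions on EV. None of the partner genes was called. For day 12 over day 1, 7.22% of all genes were called for *set-26(-)* and 9.41% for *hcf-1(-)*, and for day 3 over day 1 0.735% and 0.584%. edgeR gave p under 0.05 in 4 of 20 and 2 of 20 tests, and DESeq2 called 1 and 0. Over all genes, edgeR gave p under 0.05 for 21.9% and 23.7% at day 12 over day 1. For day 3 over day 1 it was 14.2% and 12.9%. The DESeq2 call was *lin-53* in *set-26(-)* worms for day 12 over day 1. *lin-53* had 12.5 and 11.2 CPM at day 12 and 5.15 and 7.88 CPM at day 1 in *set-26(-)* worms, while controls had 8.63 and 6.56 CPM at day 12 and 13.5 and 9.13 CPM at day 1. The genotypes thus moved in opposite directions with no overlap between days, and the interaction was 1.45 ± 0.45 (edgeR adjusted p = 0.0646, 0.0412 in DESeq2, and in edgeR 0.0318 with all 30 libraries in 1 fit and 0.0355 without day 1 control replicate 2). *rcor-1* had -1.07 ± 0.35 for the same interaction (edgeR adjusted p = 0.0757) and -0.90 ± 0.35 for *hcf-1(-)* worms (0.124). Scaling by total reads alone called both *rcor-1* interactions (adjusted p = 0.0408 and 0.0267).

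Another 30 genes of the same pathways were listed for comparison. They are further NuRD, MEC, SIN3 and CoREST genes, the class I deacetylases, the DRM complex, which also holds LIN-53, other synMuv B repressors, and 3 factors of the mitochondrial stress response. In the average of the 5 pairs 5 of the 30 rose and 3 fell in *hcf-1(-)* worms, and 4 rose and 3 fell in *set-26(-)* worms. Of all genes 33.1% and 27.8% were called in these contrasts, so neither count is above the background. *lin-13*, a zinc finger synMuv B gene, had the lowest called values, at -0.83 ± 0.10 in *hcf-1(-)* (edgeR adjusted p = 6.38e-07) and -0.58 ± 0.10 in *set-26(-)* worms (8.19e-05). *lin-54*, the DNA-binding subunit of DRM, rose by 0.94 ± 0.18 and 0.95 ± 0.19, and *spr-5*, the LSD1-type demethylase that acts with CoREST, fell by 0.35 and 0.38 (adjusted p = 0.0381 and 0.0278). With the population correlation estimated by limma, 4 of the 8 calls in *hcf-1(-)* and 5 of the 7 in *set-26(-)* worms remained. There *lin-13* (8.21e-06 and 0.000598) and *lin-54* (0.00327 and 0.00562) remained called and *spr-5* did not (adjusted p = 0.105 and 0.0864). *lin-13* was also called at single pairs, in *hcf-1(-)* worms on EV at days 3 and 12 (-0.91 ± 0.20 and -1.05 ± 0.23) and at day 3 in the *hda-1* RNAi libraries (-0.70 ± 0.21), and in *set-26(-)* worms on EV at day 3 (-0.80 ± 0.20). *dcp-66*, a further NuRD gene, rose in *set-26(-)* worms (0.32 ± 0.10, edgeR adjusted p = 0.0175, and 0.0374 in limma).

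With age on EV, 8 of these 30 genes rose and 2 fell between day 1 and day 12, against 57.6% called of all genes. The class I deacetylase *hda-3* rose by 0.96 ± 0.24 and *hda-2* by 0.66 ± 0.24, while *hda-1* itself fell by 1.13 (SE 0.32, edgeR adjusted p = 0.0056) in EV libraries. The *hda-1* replicates at day 1 were uneven. Controls had 34.2 and 35.8 CPM at day 12, against 20.5 and 117 CPM at day 1, and no fall was called in controls alone. *lin-52*, another DRM subunit, rose by 3.03 ± 0.35, and *spr-2* and *spr-3* by 0.65 ± 0.13 and 0.69 ± 0.15. *atfs-1*, the transcription factor of the mitochondrial stress response, fell by 0.81 (SE 0.13, edgeR adjusted p = 7.04e-05). For *hda-1* RNAi over EV at day 12, the only gene of the 30 besides *hda-1* to be called in the average, against 16.1% of all genes, was *lin-35*, the retinoblastoma homolog (0.46 ± 0.14, edgeR adjusted p = 0.0381).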

How the data were processed

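QuantSeq 3′ libraries were trimmed (Trim Galore 0.6.5) and aligned to WBcel235 (STAR 2.7.9a) by the authors, who kept unique alignments and deposited stranded raw counts per gene. The deposited counts were used as given. Groups came from the sample labels. Genes with more than 10 reads in at least 2 libraries of a comparison were tested with edgeR 4.0.16 (quasi-likelihood F test, TMM, R 4.3.3) in the libraries of that comparison, with Benjamini-Hochberg adjustment over all genes tested and a threshold of 0.05. SEs were computed from the log2 fold change and the F statistic. With 2 libraries per group, drawn from pooled worms, p-values measure only the spread between these libraries. Gene positions and symbols came from annotation release 115. The rule for named genes was that all 10 partner genes are reported. These members, the gene lists and the tests were chosen with earlier results of these data known. The fits were tested on simulated data with few changed genes, drawn from those with higher counts. Log2 changes of 1 were called in 12% for *set-26(-)* over control at day 1. They were called in 15% for *hda-1* RNAi over EV in day 12 controls and 94% for the averaged day 12 over day 1. Log2 changes of 2 were called in 92%, 99% and 99%. These shares need not hold where more genes change or for genes with fewer reads.

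Libraries of 1 genotype and replicate number were taken to share a population, which pairs diets and ages but not genotypes. The correlations that follow do not separate this pairing from one shared across genotypes. Deviations of same-numbered libraries correlated at 0.08 to 0.22 between diets at day 3, 0.29 to 0.33 at day 12, -0.03 to 0.22 between days and 0.0 to 0.32 between genotypes of 1 day and diet. Alternatives were a replicate block, DESeq2 1.42.0, DESeq2 size factors, no filter, all 30 libraries in 1 fit and leaving out each library. Scaling by total reads, limma 3.58.1 voom with a population correlation, the averaged mutant contrasts and the day 3 age interactions were added after the data were seen.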

Additional observations from a re-analysis of the deposited data

How the results depend on the processing

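Counts of called partner genes depended most on the scaling. The shares of all genes called under these alternatives are not given, so the counts below do not show anything particular to the partner genes. Scaling by total reads alone, which also moves the median of all genes, gave 3 calls for *set-26(-)* over control on EV (0 as reported), 7 for *hcf-1(-)* on EV (0), 1 for *hcf-1(-)* over *set-26(-)* (0), 4 for the mutants in the *hda-1* RNAi libraries (0), 13 for the averaged mutants (4), 1 for day 3 over day 1 (3), 31 for day 12 over day 3 (4), 9 for day 12 over day 1 (1), 18 for the averaged ages (10) and 2 for the age interactions at day 12 (0). It reversed 7 values: for day 12 over day 1 averaged, *let-418* (0.22), *chd-3* (0.32), *lin-40* (0.43), *mep-1* (0.47) and *rcor-1* (0.57), and *lin-40* for day 12 over day 3 in controls labelled *hda-1* RNAi (0.54) and for *hcf-1(-)* averaged (0.22).

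The replicate block, which pairs libraries of 1 population, gave 1 call for the averaged RNAi differences (0), 5 for day 3 over day 1 (3), 9 for day 12 over day 3 (4) and 3 for day 12 over day 1 (1). Between genotypes, where numbers mark different populations, the block gave 1 for *hcf-1(-)* over *set-26(-)* (0) and 3 for the mutants in the *hda-1* RNAi libraries (0). These 3 were *chd-3*, *sin-3* and *spr-1* in *hcf-1(-)* worms at day 3 (adjusted p = 0.0485, 0.0488 and 0.025). DESeq2 gave 1 for *set-26(-)* on EV and 1 for the age interactions at day 12. Without the filter there was 1 call each for *set-26(-)* on EV, *hcf-1(-)* over *set-26(-)* and the mutants in the *hda-1* RNAi libraries, 3 for the averaged ages and 0 for day 12 over day 1. All 30 libraries in 1 fit gave 2 for *set-26(-)* on EV, 1 for the mutants in the *hda-1* RNAi libraries, 1 for the age interactions at day 12 and 4 for day 12 over day 1.

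Without 1 library, counts ran from 0 to 1 for *hcf-1(-)* on EV and over *set-26(-)* (1 without day 3 *hcf-1(-)* replicate 2), 0 to 2 for the mutants in the *hda-1* RNAi libraries (2 without day 3 *hcf-1(-)* replicate 2), 0 to 4 for day 3 over day 1 (0 without either day 3 *set-26(-)* library), 5 to 11 for the averaged ages (5 without day 3 control replicate 1), 0 to 1 for the age interactions at day 12, 2 to 7 for day 12 over day 3, 0 to 2 for day 12 over day 1 and 3 to 6 for the averaged mutants. A lone library left in a group was assumed to vary like the other groups. *athp-1* and *lin-53* had as few as 22 and 28 reads, so their small changes were not detectable.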
